A study of Mus musculus with 8 samples.

Results

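The pancreatic multipotent progenitor transcription factors are the regulators that mark the early pancreatic bud before its cells become acinar, ductal or endocrine. The set examined was *Pdx1*, *Ptf1a*, *Sox9*, *Nkx6-1*, *Nkx6-2*, *Hhex*, *Mnx1*, *Gata4*, *Gata6* and *Prox1*, chosen by name, and all 10 had a row among the 24341 genes of the expression table. RNA was sequenced from individual mouse pancreas buds (strain CD1 on every label) at E11.0 (about 40 somites), 5 from WT embryos and 3 from *Pdx1Creearly;Lats1f/f;Lats2f/f* embryos, called *Lats1/2*-null here. In the latter, Cre recombinase driven by the promoter of *Pdx1*, itself one of the factors examined, removes floxed parts of *Lats1* and *Lats2*, the Hippo pathway kinases, from pancreatic progenitors. Cells that never expressed the transgene keep both genes. Mesenchyme was pulled away by hand before RNA isolation, so each library still holds whatever stromal, vascular and blood cells remained. Levels are FPKM, fragment numbers divided by transcript length and by the size of the library, and can be set beside each other between genes. The question was which of the progenitor factors changed when the kinases were lost, and which changed less than the others.

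In the embryo, PDX1 and PTF1A together specify the pancreatic domain of the foregut endoderm, and loss of either blocks growth of the organ. SOX9 keeps progenitors multipotent and later marks the ducts, HHEX is needed for the ventral bud, MNX1 for the dorsal bud, and GATA4 and GATA6 act redundantly upstream in bud formation. NKX6-1 and PTF1A repress each other as the epithelium is patterned into a trunk, which gives ducts and endocrine cells, and tips, which give acini.

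The libraries were of similar depth except WT replicate 5. The FPKM value of a single fragment at a length of 1000 bases was 0.134 for WT replicate 5, which held fewer fragments, and 0.099 to 0.1065 for the remaining 7 libraries. *Lats1* lay between 14.1 and 16.6 FPKM in WT and between 10.1 and 13.8 in *Lats1/2*-null, with no overlap, and *Lats2* between 11.6 and 14.7 and between 11.1 and 13.4, with overlap. These rows sum deleted and retained exons. The epithelial markers moved with genotype. The summed level of 21 pan-epithelial genes ranged from 290.8 to 355.9 FPKM in WT and from 542.7 to 1264 FPKM in *Lats1/2*-null, where replicate 3 was highest. Of the 20 tested, 17 were higher in every *Lats1/2*-null library than in every WT library, against 4.46% of all genes tested. The 20 mesenchymal markers summed to 1343 to 1442 FPKM in WT and 1011 to 1314 in *Lats1/2*-null, and the 17 endothelial markers to 163 to 285 and 117 to 178. In bulk RNA a smaller number of cells of a type and less RNA per cell cannot be told apart.

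*Sox9*, *Nkx6-1* and *Hhex* were the factors with the largest differences between genotypes, and their levels in the 3 *Lats1/2*-null buds lay above all 5 WT buds. Their mean levels were 2.57, 3.14 and 2.50 times those of WT. *Pdx1*, *Prox1*, *Gata4*, *Gata6* and *Mnx1* had higher means in *Lats1/2*-null but ranges that overlapped WT, *Nkx6-2* was separated from WT by a narrow margin, and *Ptf1a* was the factor with a lower mean. With limma on log2(FPKM + 1) and Benjamini-Hochberg adjustment over all 13777 tested genes, 0 of the 10 factors passed an adjusted p of 0.05. Few genes of any kind passed, 2 in all or 0.0145% of those tested, and 0 to 19 with each library left out in turn, the highest without *Lats1/2*-null replicate 3. At an unadjusted p under 0.05, 4 of the 10 factors were higher and 0 lower, against 6.29% of all tested genes higher and 4.99% lower. With limma array weights 3 of the 10 passed the adjusted threshold, against 1.26% of all tested genes. The median log2 fold change of the 10 was 0.49, against -0.01 over all tested genes. Because 1 FPKM is added, a log2 fold change understates the change of factors at low levels, such as *Ptf1a* and *Mnx1*.

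**Figure D1:**
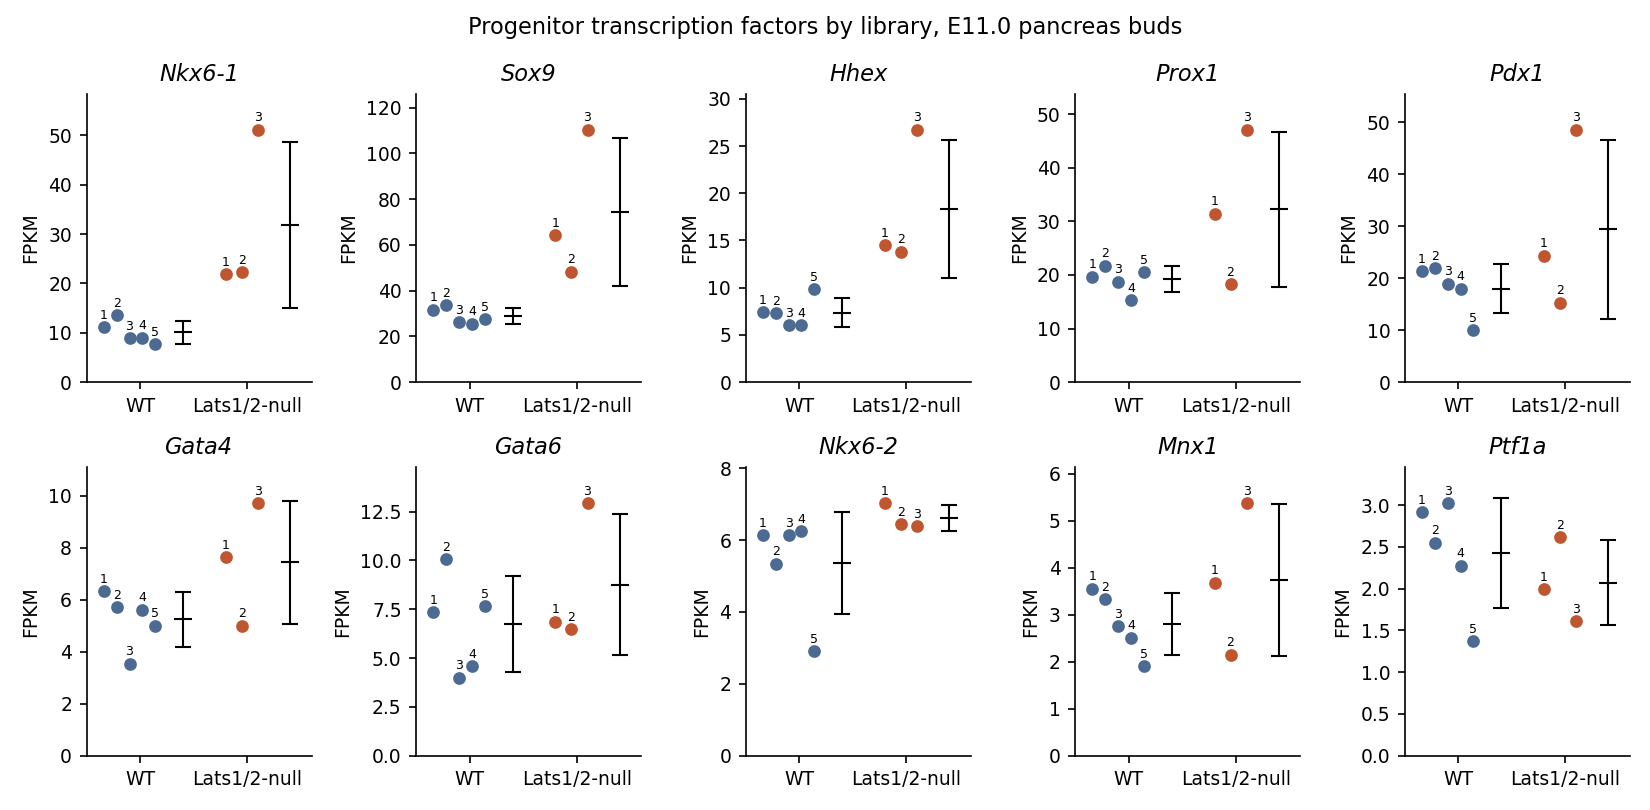
Level of each factor in FPKM (vertical axis, from 0, scaled to each gene) in the 5 WT libraries (blue) and 3 *Lats1/2*-null libraries (orange), with replicate numbers above the points and bars for the mean and SD. The *Lats1/2*-null points of *Sox9*, *Nkx6-1* and *Hhex* lie above every WT point, and *Lats1/2*-null replicate 3 is the highest library for 8 of the 10 factors.

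*Sox9*, an SRY-box factor of progenitors and ducts, occupies chromosome 11 (GRCm38), positions 112782210 to 112787757. Its levels in WT replicates 1 to 5 were 31.8, 33.6, 26.3, 25.6 and 27.6 FPKM, and in *Lats1/2*-null replicates 1 to 3 they were 64.4, 48.3 and 110.4 FPKM. The lowest *Lats1/2*-null bud was well above the highest WT bud. The WT mean was 29.0 ± 3.49 FPKM and the *Lats1/2*-null mean 74.4 ± 32.3 FPKM (SD, n = 5 and n = 3). The log2 fold change was 1.25 (SE 0.22) with a limma adjusted p of 0.116 and an exact permutation p of 0.0179 (two-sided), the smallest that 56 splits of 8 buds can give.

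*Nkx6-1*, a homeodomain factor of the trunk and later of beta cells, lies on chromosome 5 from 101659197 to 101664711. WT replicates 1 to 5 held 11.2, 13.6, 8.94, 9.04 and 7.74 FPKM, and the *Lats1/2*-null replicates 21.9, 22.2 and 51.2 FPKM. Replicates 1 and 2 of the *Lats1/2*-null buds were close together, and replicate 3 was far above both. The means were 10.1 ± 2.33 and 31.8 ± 16.8 FPKM (SD, n = 5 and n = 3), with a log2 fold change of 1.47 (SE 0.28), a limma adjusted p of 0.124 and an exact permutation p of 0.0179.

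*Hhex*, a homeobox factor of the ventral foregut that also acts in liver and endothelial precursors, lies on chromosome 19 from 37434841 to 37440731. Its levels were 7.43, 7.31, 6.05, 6.06 and 9.84 FPKM in WT and 14.5, 13.8 and 26.7 FPKM in *Lats1/2*-null. As for *Nkx6-1*, mutant replicates 1 and 2 were close together and replicate 3 far above, while WT replicate 5, low for *Nkx6-1*, was the highest WT bud for *Hhex*. The means were 7.34 ± 1.55 and 18.4 ± 7.28 FPKM (SD, n = 5 and n = 3), the log2 fold change was 1.17 (SE 0.22), the limma adjusted p was 0.124 and the exact permutation p was 0.0179. Among markers of the other tissues that use *Hhex*, the median log2 fold change was 0.50 for 13 liver genes and -0.39 for 17 endothelial genes. Of these, 2 liver genes were separated from WT upward and 3 endothelial genes downward, against 4.46% and 3.06% of all tested genes.

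The size of these differences rested partly on *Lats1/2*-null replicate 3, whose epithelial marker sum was also the highest. Without it the ratio of means was 1.94 for *Sox9*, 2.18 for *Nkx6-1* and 1.93 for *Hhex*, and each remaining *Lats1/2*-null bud still lay above all WT buds.

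*Prox1* encodes a homeobox factor of early endoderm, liver and pancreas, on chromosome 1 from 190121777 to 190170680. Its levels were 19.7, 21.7, 18.8, 15.3 and 20.6 FPKM in WT and 31.4, 18.3 and 47.1 FPKM in *Lats1/2*-null. *Lats1/2*-null replicate 2 lay within the WT range and the other two above it. The log2 fold change was 0.63 (SE 0.25), with a limma adjusted p of 0.393 and an exact permutation p of 0.0893. It was 0.32 without *Lats1/2*-null replicate 3 and 0.98 without *Lats1/2*-null replicate 2.

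*Pdx1*, whose product is required for the pancreas and later for beta cells, lies on chromosome 5 with a row that runs from 147228598 to 147275149 and takes in the locus of *2210019I11Rik*. Its levels were 21.3, 21.8, 19.0, 17.96 and 9.96 FPKM in WT and 24.3, 15.3 and 48.5 FPKM in *Lats1/2*-null. The mutant buds were one below most WT buds, one just above all of them and one far above. The ratio of means was 1.63, and it was 1.10 without *Lats1/2*-null replicate 3. The log2 fold change was 0.57 with a 95% confidence interval from -0.22 to 1.36, a limma adjusted p of 0.593 and an exact permutation p of 0.304.

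*Gata4* and *Gata6*, the zinc finger factors, were of like level, and both overlapped between genotypes. *Gata4*, on chromosome 14 from 63198915 to 63245260, held 6.33, 5.71, 3.54, 5.61 and 5.00 FPKM in WT and 7.64, 4.99 and 9.71 FPKM in *Lats1/2*-null. *Gata6*, on chromosome 18, held 7.34, 10.1, 4.00, 4.60 and 7.67 FPKM in WT and 6.86, 6.48 and 12.9 FPKM in *Lats1/2*-null. For *Gata6*, replicates 1 and 2 of the mutant lay inside the WT range, and the ratio of means without replicate 3 was 0.990. Log2 fold changes were 0.42 (95% confidence interval -0.06 to 0.89) for *Gata4* and 0.34 (-0.33 to 1.01) for *Gata6*. Limma adjusted p-values were 0.517 and 0.732. For *Gata4* the log2 fold change was 0.22 without *Lats1/2*-null replicate 3 and 0.64 without *Lats1/2*-null replicate 2.

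*Nkx6-2*, the paralog of *Nkx6-1* that acts beside it in early pancreatic progenitors, lies on chromosome 7 in a row that spans 139389109 to 139582797 and also covers *Inpp5a*, transcribed from the opposite strand. Its levels were 6.14, 5.35, 6.15, 6.24 and 2.90 FPKM in WT and 7.03, 6.44 and 6.39 FPKM in *Lats1/2*-null. The genotypes did not overlap, but the lowest mutant bud exceeded the highest WT bud by a small margin, and *Lats1/2*-null replicate 3, the highest library for most factors, was here the lowest mutant. The log2 fold change was 0.30 (95% confidence interval -0.16 to 0.76), with a limma adjusted p of 0.637 and an exact permutation p of 0.179. Counting *Nkx6-2*, 4 of the 10 factors had every *Lats1/2*-null library above every WT library, against 4.46% of all tested genes, and 0 of 10 had every one below, against 3.06%. Without *Lats1/2*-null replicate 2, 8 of the 10 were separated upward, against 10.1% of all tested genes in the same 7 libraries.

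*Mnx1*, a homeobox factor of the dorsal bud and of motor neurons, on chromosome 5 from 29473823 to 29478470, was expressed at 3.55, 3.33, 2.76, 2.51 and 1.90 FPKM in WT and 3.68, 2.15 and 5.37 FPKM in *Lats1/2*-null. One mutant bud lay inside the WT range, one just above it and one higher. The log2 fold change was 0.27 (95% confidence interval -0.26 to 0.81) and the limma adjusted p 0.726. Without *Lats1/2*-null replicate 3 it was 0.03, and without *Lats1/2*-null replicate 2 it was 0.54.

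*Ptf1a*, the bHLH factor that pairs with RBPJ in progenitors and drives acinar fate, lies on chromosome 2 in a row from 19441508 to 19447501 that overlaps its antisense transcript *Ptf1aos*. The libraries kept strand. Its levels were 2.91, 2.55, 3.02, 2.27 and 1.37 FPKM in WT and 1.99, 2.61 and 1.61 FPKM in *Lats1/2*-null. All mutant values lay inside the WT range, and *Lats1/2*-null replicate 3, in which *Sox9*, *Nkx6-1* and *Pdx1* were highest, had the lowest *Ptf1a* of the 3. The WT mean was 2.43 ± 0.662 FPKM and the *Lats1/2*-null mean 2.07 ± 0.508 FPKM (SD, n = 5 and n = 3), and the log2 fold change was -0.15 (95% confidence interval -0.60 to 0.30, limma adjusted p = 0.835, exact permutation p = 0.536). These values rested on about 15 to 43 fragments per library, fewer than for any other factor, against 852 to 4499 for *Sox9*, if the longest annotated transcript is the one expressed.

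**Figure D2:**
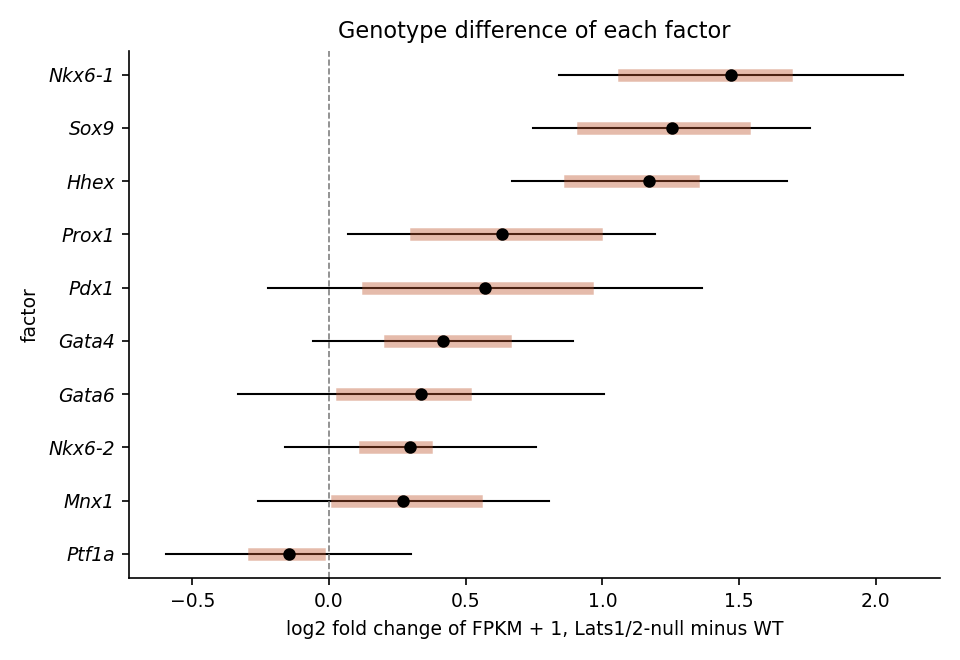
Log2 fold change of FPKM + 1 between *Lats1/2*-null and WT buds (horizontal axis) for each factor, with black lines for the 95% confidence interval from limma and orange bands for the range when each library is left out in turn. The intervals of *Nkx6-1*, *Sox9*, *Hhex* and *Prox1* lie above 0, and those of the other factors cover 0.

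In WT buds the order of mean levels was *Sox9*, *Prox1*, *Pdx1*, *Nkx6-1*, *Hhex*, *Gata6*, *Nkx6-2*, *Gata4*, *Mnx1* and *Ptf1a*. *Sox9* was above *Prox1* in 5 of 5 WT libraries, *Pdx1* above *Nkx6-1* in 5 and *Gata4* above *Mnx1* in 5. *Prox1* and *Pdx1* were not separated, since *Prox1* was the higher in 1 of 5, and nor were *Nkx6-2* and *Gata4*, with the stated order in 2 of 5, or *Gata6* and *Nkx6-2*, with 3 of 5. In *Lats1/2*-null buds *Pdx1* was above *Nkx6-1* in 1 of 3 libraries. The log2 ratio of *Nkx6-1* to *Pdx1* ran from -1.01 to -0.33 in WT and from -0.15 to 0.51 in *Lats1/2*-null, without overlap.

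To ask which factors differed less than others, the log2 ratio of FPKM + 1 between 2 factors was compared between genotypes for all 45 pairs. A ratio within a library shows unequal change and not which of the factors changed. The ratio did not overlap between genotypes for 13 pairs, and in each of them the factor with the larger difference was *Nkx6-1* (7 pairs), *Sox9* (5 pairs) or *Hhex* (1 pair). The log2 ratio of *Nkx6-1* was higher in *Lats1/2*-null by 1.62 against *Ptf1a*, 1.20 against *Mnx1*, 1.17 against its paralog *Nkx6-2*, 1.13 against *Gata6*, 1.05 against *Gata4*, 0.90 against *Pdx1* and 0.84 against *Prox1*. That of *Sox9* was higher by 1.40 against *Ptf1a*, 0.98 against *Mnx1*, 0.92 against *Gata6*, 0.84 against *Gata4* and 0.62 against *Prox1*. That of *Hhex* was higher by 0.84 against *Gata6*. Each of the 13 had an exact permutation p of 0.0179, the smallest possible, and an adjusted p of 0.0618 over the 45 pairs, so 0 of 45 passed 0.05 after adjustment. Among *Nkx6-1*, *Sox9* and *Hhex* the ratios overlapped, with *Nkx6-1* against *Sox9* at 0.22 (exact permutation p = 0.196). No pair among the other 7 factors was separated. The number of separated pairs was 22 without WT replicate 5 and 21 without *Lats1/2*-null replicate 2, where 33.6% and 60.6% of the ratios of a factor to any tested gene were separated.

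**Figure D3:**
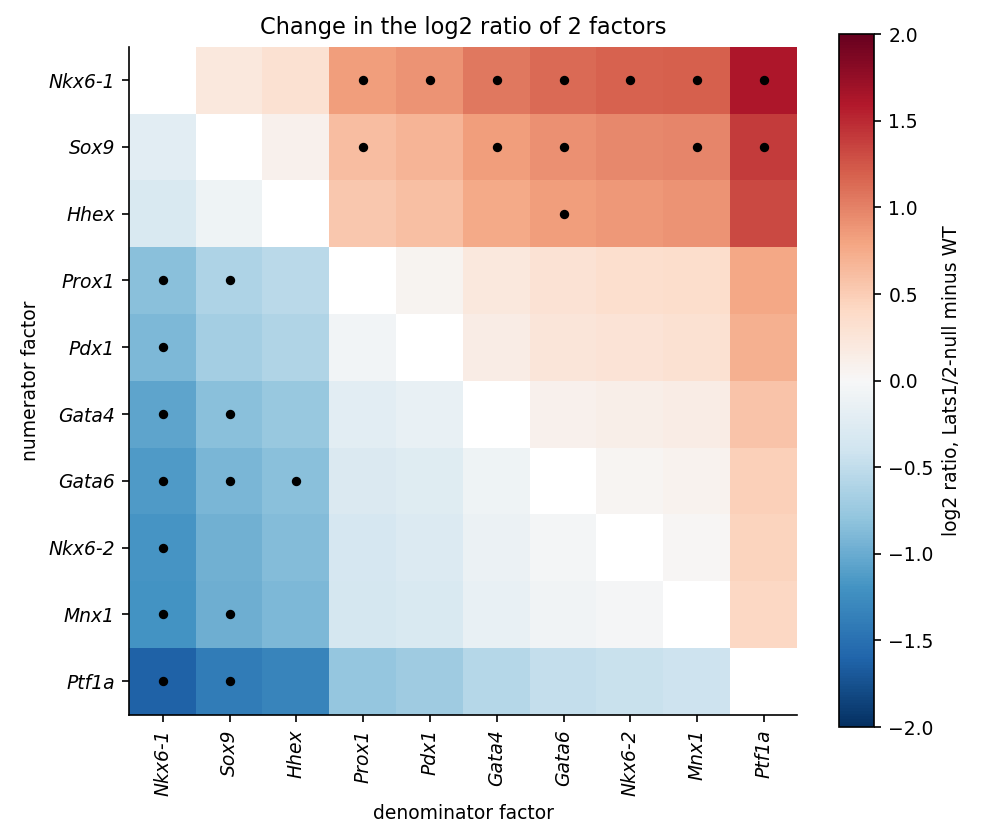
Change in the log2 ratio of FPKM + 1 of the row factor to the column factor, *Lats1/2*-null minus WT, for all 45 pairs, each drawn in both orders. Black dots mark the 13 pairs whose ratio does not overlap between the genotypes, all with *Nkx6-1*, *Sox9* or *Hhex* as the factor with the larger difference.

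The share of separated pairs was set beside that of the same factors against all other tested genes. Over the ratios of each factor to every other tested gene, 30.7% did not overlap between genotypes, close to the 13 of 45. Every one of these ratios holds a factor of the set, and pairs of other genes were not counted. Whether the share is particular to the factors was therefore not tested. The log2 ratio of *Nkx6-1* to another gene was higher in *Lats1/2*-null, without overlap, for 94.4% of 13776 genes. For *Sox9* this share was 92.1% and for *Hhex* 84.7%. For *Nkx6-2* it was 16.8%, for *Prox1* 6.43%, for *Gata4* 3.94%, and for *Pdx1*, *Mnx1*, *Gata6* and *Ptf1a* below those values. The log2 ratio of *Ptf1a* was lower in *Lats1/2*-null, without overlap, for 1.7% of genes.

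The factors were also set against the epithelial markers of the same library, as log2(FPKM + 1) minus the marker mean, because those markers were higher in the *Lats1/2*-null libraries. The markers did not change alike, with log2 fold changes of -0.07 for *Prom1*, 1.04 for *Epcam* and 2.36 for *Krt19*. The scale therefore also carries differences among the markers. The 10 tests of the factors are given unadjusted. On this scale *Sox9* differed by 0.16 between genotypes (exact permutation p = 0.0893), *Nkx6-1* by 0.38 (p = 0.0536) and *Hhex* by 0.08 (p = 0.696), and all 3 overlapped. *Ptf1a* differed by -1.24, with values from -1.96 to -1.13 in WT and a mean of -2.74 ± 0.819 (SD, n = 3) in *Lats1/2*-null. *Mnx1* differed by -0.82, *Gata6* by -0.76 and *Gata4* by -0.68, and for these 4 factors every *Lats1/2*-null library lay below every WT library (exact permutation p = 0.0179 for *Ptf1a*, *Mnx1* and *Gata4*, 0.0357 for *Gata6*). Without *Lats1/2*-null replicate 3 the difference was -0.79 for *Ptf1a*, still without overlap, and -0.44 for *Nkx6-2*. The differences of *Nkx6-2* at -0.80, *Pdx1* at -0.52 and *Prox1* at -0.46 came with overlap, and exact permutation p-values of 0.0714, 0.125 and 0.0357. Relative to the same markers 88.6% of all tested genes lay below WT in this way, so 4 of 10 is fewer than among genes at large (3 to 6 of 10 over the alternatives, with 6 both without WT replicate 5 and with the median of the markers), and 11.2% of tested genes overlapped between genotypes as 6 of the 10 factors did. How far a larger share of epithelial cells accounts for the levels of *Sox9*, *Nkx6-1* and *Hhex* was not tested. *Nkx6-1* lay above WT in every *Lats1/2*-null library in 3 of 14 alternatives and *Sox9* in 2. For *Nkx6-1*, 2 marker sets were chosen after seeing the data. Of these, *Epcam* and *Cdh1* alone gave a difference of 0.41 without overlap (exact permutation p = 0.0179). The markers of at least 5 FPKM gave 0.26 for *Nkx6-1* with overlap (exact permutation p = 0.107).

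**Figure D4:**
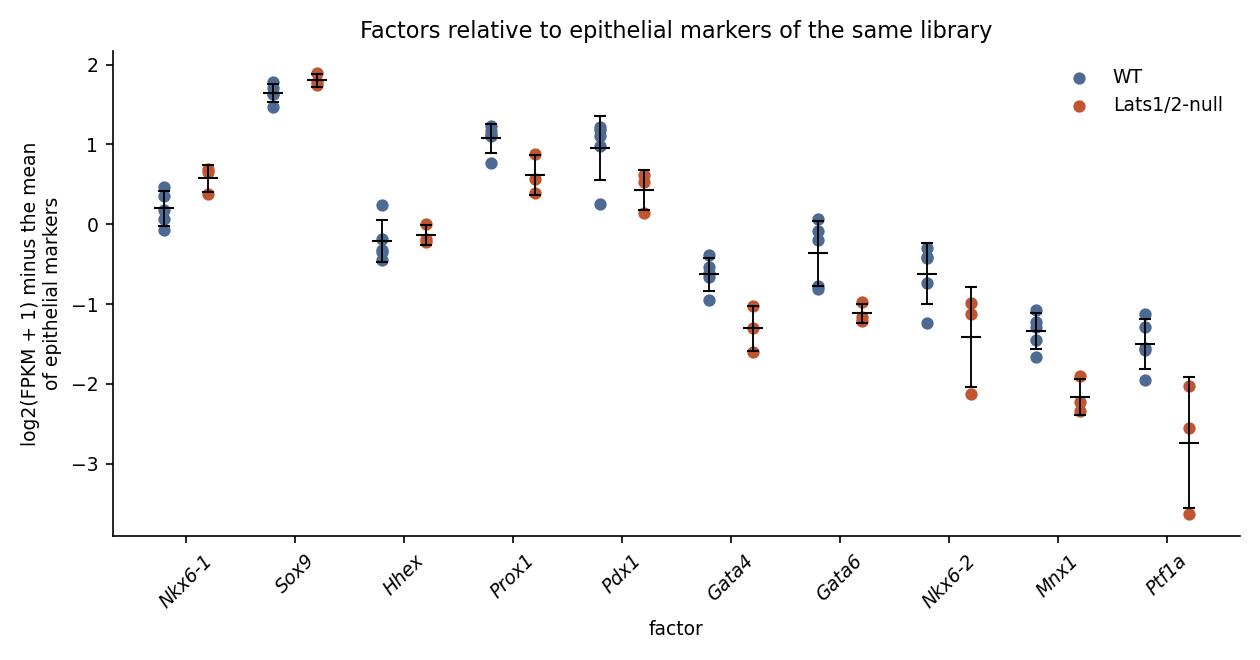
Level of each factor relative to the epithelial markers of its own library, as log2(FPKM + 1) minus the marker mean, in WT (blue) and *Lats1/2*-null (orange) libraries, with bars for the mean and SD. The points of *Sox9*, *Nkx6-1* and *Hhex* overlap between genotypes, and those of *Ptf1a*, *Mnx1*, *Gata4* and *Gata6* lie lower in every *Lats1/2*-null library.

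Upstream sequence is shown for *Hhex*, as a factor with a large difference between genotypes, and for *Nkx6-2* and *Ptf1a*, as factors with smaller ones. Each run is the sense strand of the RefSeq promoter window on GRCm38.p6, ends before the first annotated transcript and starts 250 bases before the RefSeq start. *Hhex* is at chr19:37434591-37434809 (plus strand), *Nkx6-2* at chr7:139582798-139583047 (minus strand) and *Ptf1a* at chr2:19445413-19445662 (plus strand). Capitals mark matches on either strand to 6 motifs. The letters of the RBPJ and TEAD motifs can overlap, but no matches overlap in these runs. The GC box was searched as GGGCGG and the box called CCAAT by its own letters. The site of RBPJ was searched as TGGGAA, that of GATA factors as AGATAA, the TATA element as TATAAA and the TEAD core as GGAATG.
Hhex: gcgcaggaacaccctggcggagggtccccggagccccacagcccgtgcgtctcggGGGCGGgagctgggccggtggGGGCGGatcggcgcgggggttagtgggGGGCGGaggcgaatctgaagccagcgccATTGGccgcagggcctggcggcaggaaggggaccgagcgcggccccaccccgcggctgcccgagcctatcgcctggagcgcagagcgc
Nkx6-2: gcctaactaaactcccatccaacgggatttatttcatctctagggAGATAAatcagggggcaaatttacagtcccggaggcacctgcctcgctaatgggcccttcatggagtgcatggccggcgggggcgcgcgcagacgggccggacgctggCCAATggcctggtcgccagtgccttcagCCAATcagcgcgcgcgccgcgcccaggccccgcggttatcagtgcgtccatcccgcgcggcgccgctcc
Ptf1a: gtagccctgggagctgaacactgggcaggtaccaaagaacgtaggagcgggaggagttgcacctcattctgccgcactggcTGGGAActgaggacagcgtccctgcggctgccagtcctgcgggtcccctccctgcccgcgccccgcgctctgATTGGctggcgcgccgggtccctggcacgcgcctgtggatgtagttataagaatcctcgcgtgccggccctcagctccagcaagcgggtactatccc

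The *Hhex* stretch held 3 GC boxes and 1 CCAAT box, that of *Nkx6-2* held 1 GATA site and 2 CCAAT boxes, and that of *Ptf1a* held 1 RBPJ site and 1 CCAAT box. RefSeq windows were matched for 7 of the 10 factors, with 2 for *Prox1*, and none was found for *Sox9* or *Gata4*. Windows of the factors on chromosome 18, where *Gata6* lies, were left out of the search. The CCAAT box occurred in windows of 5 of these 7 factors, the GC box in 3, the RBPJ site in 2, the GATA and TATA motifs in 1 each and the TEAD core in 0. Among all 32851 windows of 250 bases, 33.8% held the CCAAT box, 32.7% the GC box, 21.6% the RBPJ site, 9.99% the GATA site, 12.4% the TATA box and 12.6% the TEAD core. The *Nkx6-1* window held none of the 6 motifs. Matches were counted over whole windows of 250 bases, also where these ran into annotated transcripts. The *Nkx6-1* window and 1 of the 2 *Prox1* windows, with its RBPJ match, began inside an annotated transcript and are not upstream sequence. These are matches of letters and no measure of binding.

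The genes whose pattern over the 8 libraries lay nearest to each factor were found by the root mean square difference of centred log2(FPKM + 1) among 9277 genes averaging 5 FPKM or more. For *Sox9* the nearest were *Cldn4*, a tight junction claudin, at 0.085 and *Gm16551* at 0.096. For *Nkx6-1* they were *Pik3ap1* at 0.147 and *Gm16551* at 0.148, and for *Hhex* *Spon1* at 0.171 and *Cldn4* at 0.173. *Pdx1* lay nearest to *Fam20c* (0.169) and *Agpat2* (0.194), *Prox1* to *Inadl* (0.112) and *Sytl5* (0.123), and *Mnx1* to *Abca1* (0.103) and *Ids* (0.124). *Gata4* lay nearest to *Nab1* (0.094) and *Qsox1* (0.113), *Gata6* to *Parm1* (0.135) and *Ahnak* (0.159), *Nkx6-2* to *Cib1* (0.092) and *Wtip* (0.092), and *Ptf1a* to *Tvp23a* (0.097) and *Gng10* (0.0999). Among the factors themselves *Sox9* and *Nkx6-1* were nearest to each other (0.201) and *Ptf1a* and *Nkx6-1* farthest apart (0.921).

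Other regulators of the progenitor state showed both directions. Of 25 tested genes outside the 10 factors, 9 were higher and 5 lower at an unadjusted p under 0.05, 0 passed adjustment, and the median log2 fold change was 0.26. Over all tested genes 6.29% were higher and 4.99% lower at that p, and the median was -0.01. *Onecut1*, the HNF6 factor upstream of endocrine specification, held 11.96 to 18.4 FPKM in WT and 44.6, 28.6 and 96.2 FPKM in *Lats1/2*-null, with a log2 fold change of 1.57 (SE 0.32, limma adjusted p = 0.146). Its bud order was that of *Sox9*, with replicate 3 highest and replicate 2 lowest of the mutants. *Id3*, an inhibitor of bHLH factors, was lower, with 68.4 to 93.3 FPKM in WT, 54.8, 61.0 and 50.3 FPKM in *Lats1/2*-null and a log2 fold change of -0.50 (SE 0.11, limma adjusted p = 0.150).

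Genes for DNA-binding partners and cofactors of the 10 factors were more often lower than higher in mean. Of 18 tested, 17 had a lower log2 mean and 1 a higher one, while 0 were higher and 6 lower at an unadjusted p under 0.05. Over all tested genes 6.29% were higher and 4.99% lower at that p. In this list 0 passed adjustment, and the median log2 fold change was -0.17, against -0.01 over all tested genes. *Rbpj*, the Notch effector that joins PTF1A in its trimeric complex, held 21.96 to 24.5 FPKM in WT and 18.03, 19.4 and 18.1 FPKM in *Lats1/2*-null, without overlap (log2 fold change -0.32, SE 0.06, limma adjusted p = 0.140). *Meis1* and *Meis3*, TALE homeobox genes, had log2 fold changes of -0.32 and -0.42 with limma adjusted p of 0.322 and 0.382. *Meis1* was at 84.7 to 110.5 FPKM in WT and 64.7 to 83.0 FPKM in *Lats1/2*-null, and mesenchymal and endothelial markers were lower in the same libraries. The part of those cells in the result was not tested.

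Relatives of the factors in the GATA, SOX, homeobox and bHLH families, many of which mark other tissues, were measured as a further comparison. Of 21 listed, 15 reached 0.5 FPKM on average, and 0 of these passed adjustment. At an unadjusted p under 0.05, 2 were higher and 4 lower, against 6.29% and 4.99% of all tested genes. *Gata3* held 1.90 to 2.25 FPKM in WT and 1.34, 1.31 and 1.05 FPKM in *Lats1/2*-null (log2 fold change -0.50, limma adjusted p = 0.196). *Gata5* and *Hlx* also lay lower in every *Lats1/2*-null library, with log2 fold changes of -0.50 and -0.69. The means of *Gata4* and *Gata6* were higher than in WT and those of *Gata3* and *Gata5* lower, with *Gata4* and *Gata6* not separated from WT.

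Markers of other cells were read beside these results. The 20 endocrine markers summed to 822 to 1054 FPKM in WT and 1014 to 2456 FPKM in *Lats1/2*-null. Most of that sum was *Gcg*, at 622 to 806 FPKM in WT and 800 to 2019 FPKM in *Lats1/2*-null. In log2 mean 19 of the 20 were higher and 1, *Isl1*, lower. Those separated upward numbered 4, against 4.46% of all tested genes. Liver markers summed to 118 to 209 and 170 to 484 FPKM, red blood cell markers to 2667 to 15879 and 8124 to 10275, leukocyte markers to 15.4 to 33.9 and 25.8 to 36.2, and nerve and neural crest markers to 23.4 to 32.2 and 28.7 to 56.6. Mesothelial markers other than *Krt19*, which is also among the epithelial markers, summed to 56.3 to 78.9 FPKM in WT and 42.1 to 47.8 FPKM in *Lats1/2*-null. Of the 6 mesothelial markers tested, 3 were separated downward, against 3.06% of all tested genes. Among them was *Aldh1a2*, with means of 19.3 and 5.25 FPKM. Stomach and duodenum markers, which would bear on the *Pdx1* of gut epithelium, summed to 31.4 to 52.9 FPKM in WT and 16.1 to 35.6 in *Lats1/2*-null, and 3 of the 15 were listed at 0 in all libraries. The part of these cells in the levels of the 10 factors was not tested.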

How the data were processed

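RNA from 8 individual buds was sequenced. According to the labels and methods, reads were trimmed with cutadapt 1.12 and aligned with TopHat2 2.1.0 to mm10, and FPKM per gene were deposited by the authors from Cuffdiff 2.2.1, without counts. The methods state quantile normalization, but the distributions of the deposited columns differ, and they were used as they stand. Genotypes came from the labels. The 13777 genes averaging 0.5 FPKM or more entered limma 3.58.1 (R 4.3.3) as log2(FPKM + 1), with the trend option and Benjamini-Hochberg adjustment. Exact two-sided permutation tests used all 56 splits. Named related genes were the 3 with the smallest p in each list (1 is not reported here), and the 2 nearest in pattern were named for each factor. The factors and lists were chosen with earlier results of these data known. The study also picked *Sox9*, *Nkx6-1*, *Prox1* and *Pdx1* on these libraries, so their directions are not independent evidence. Depth per library was read from the steps of low values. Each bud came from its own embryo. Coordinates count from 1. The alternatives were another pseudocount, other filters, scalings and variance models, the replicate block, other epithelial markers, and each library left out.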

Additional observations from a re-analysis of the deposited data

Results flagged for a closer look

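Of the WT values, 3 stood apart within a group by Dixon's test at its 95% limit of 0.71 for 5 samples, among 20 groups of WT values tested, and chance alone flags about 1 in 20. *Nkx6-2* in WT replicate 5 was at 2.90 FPKM, below the other 4 WT buds by 0.732 of the group's range. *Pdx1* relative to the epithelial markers was 0.253 in WT replicate 5, lower than in the other WT buds by 0.752 of the range. *Prox1* on the same scale was 0.765 in WT replicate 4, lower by 0.727 of the range. WT replicate 5 was also the shallowest library.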

How the results depend on the processing

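All 10 factors kept the direction of their difference in all 16 alternatives, and the 10 log2 fold changes were on the same side of the adjusted threshold in each, except that *Sox9*, *Nkx6-1* and *Hhex* passed it with limma array weights, where their adjusted p was 0.0180, 0.0409 and 0.0213. Over the alternatives the adjusted p ran from 0.018 to 0.479 for *Sox9*, 0.041 to 0.479 for *Nkx6-1* and 0.021 to 0.451 for *Hhex*. The number of factors passing was 0, and 3 with array weights. It stayed at 0 with each library left out. The number of genes passing was 2 in the fit used, 18 with 0.1 FPKM added, 1 without a mean-variance trend, 174 with array weights, and 0 to 19 with a library left out, the highest without *Lats1/2*-null replicate 3. Of the related genes 0 passed, and 7 with array weights. With replicate number as a block 1 gene and 0 factors passed, and deviations of same-numbered buds correlated by 0.085, -0.097 and 0.069, so the numbers were not taken as pairs. Factors separated between genotypes numbered 4, 3 with quantile normalization, and 4 to 8 with a library left out, the highest without *Lats1/2*-null replicate 2. Separated pairs numbered 13, and 13 to 22 with a library left out, 22 without WT replicate 5 and 21 without *Lats1/2*-null replicate 2. All 13 were shared by every setting but 0.1 FPKM added, which kept 12. Relative to epithelial markers, *Mnx1*, *Gata4* and *Gata6* lay below WT in 14 of 14 alternatives and *Ptf1a* in 13, the exception being 0.1 FPKM added. The number below WT was 4, and 3 to 6 over these alternatives, with *Nkx6-2* and *Prox1* added by the median of the markers and *Pdx1* and *Nkx6-2* without WT replicate 5. Depth limits *Ptf1a* most if the longest annotated transcripts are the ones expressed. At the shortest, the lowest library held about 16 fragments for *Gata6* and 20 for *Gata4*, against 15 for *Ptf1a*. No counts were used for intervals.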
